A study of Drosophila melanogaster with 35 samples.

Results

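Replication timing was compared between follicle cells and wing discs of flies that lack Rif1, window by window along the genome. Each member of the comparison was a window of 100 kb, apart from 60 shorter ones. Its value was the log2 S/G1 ratio of Rif1 null follicle cells minus that of Rif1 null wing discs. Each profile had first been centred on the median of its scaffold. The table held 13391 windows on the scaffolds 2L, 2R, 3L, 3R, X and 4 of the dm6 genome, at a slide of 10 kb. Of these, 13360 were kept, and 31 windows with midpoints from 2.7 to 3.0 Mb on X were left out. All other windows were taken whatever their value, and those of X were left out with their values known. The largest null difference, 1.92, was in a short window at the end of 3L (28110001 to 28110227).

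Both null tissues carried the genotype Rif1[1]/Rif1[2] and came from females. The wing discs were taken from 3rd instar larvae and the follicle cells from the ovaries of adults, so tissue and developmental stage change together. Nuclei were sorted by DNA content, and "MS" denotes S phase nuclei with 2C to 4C DNA, with 2 S phase samples of each tissue behind each deposited mean. By the study's own account, the follicle cell fraction can include cells in their earliest endocycle. The wild-type pair set beside the null consisted of yw wing discs and OregonR follicle cells, the Rif1 PP1 pair was Rif1[PP1]/Rif1[1], the heterozygous follicle cells were Rif1[2]/CyO, and endocycling (ES) follicle cells were taken from wild type and null.

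Single-end sequencing of ThruPLEX libraries was used for wing discs and paired-end sequencing of NEBNext Ultra II libraries for follicle cells, in every genotype and on different instruments, so tissue and library kit cannot be told apart. G1 nuclei of wing discs were the copy number control. The labels list a G1 library of yw and a G1 library of Rif1 null wing discs, and which of them divided each null profile is not stated in the sources used here; a part of a G1 library in the differences was not tested. The deposited table has 1 mean per condition, so the spread between replicates cannot be given or tested for any value below, and the depth of reads in a window is unknown. A window is called earlier in a tissue where its centred difference is over 0.1, the fold change named in the study's methods.

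In an S phase population, DNA that replicates early is present in more copies than DNA that replicates late, which is what an S/G1 ratio reads. Rif1 is a chromatin protein that holds back late origins by bringing Protein Phosphatase 1 to loaded replicative helicases, which counters the kinase that activates them. In Drosophila, the repeat-rich DNA around centromeres replicates late and under-replicates in many endocycling cells. In bulk DNA, an earlier start in every cell, an earlier start in some cells and a higher copy number cannot be told apart.

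The tissue labels were read against the chorion gene clusters, which follicle cells amplify to make eggshell protein. The window of the cluster on 3L (Cp15, Cp16, Cp18 and Cp19, 8680001 to 8780000) stood at 0.76 in null follicle cells and at 0.14 in null wing discs. The same window was at 1.43 in null endocycling follicle cells, 0.87 in wild-type endocycling, 0.71 in heterozygous, 0.64 in Rif1 PP1 and 0.43 in wild-type follicle cells, and at 0.11 and 0.08 in Rif1 PP1 and wild-type wing discs. All 6 follicle cell profiles were thus above all 3 wing disc profiles. At the window of Cp36 and Cp38 on X (8430001 to 8530000) the null values were 0.33 in follicle cells and 0.02 in wing discs. The values hold no reading of Rif1 itself, and the genotype labels were not checked.

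Without Rif1, the tissues differed most in pericentric heterochromatin, where follicle cells were earlier. Along the arms, null wing discs were earlier in 13.9% of windows and null follicle cells in 8.25%, an order that was lost when profiles were centred on the windows outside pericentric heterochromatin (10.5% and 10.8%) or with a threshold of 0.2 (0.93% and 1.09%). Over all 13360 windows, 2300 (17.2%) were earlier in null follicle cells and 1676 (12.5%) in null wing discs. The wild-type pair gave 18.0% and 19.9% of the same windows, and the Rif1 PP1 pair 17.5% and 17.8%. The null pair had fewer windows past the threshold than the wild-type pair, mainly on the side of wing discs. With the null profiles quantile normalized to each other the order of the tissues turned, with 15.5% of windows earlier in null follicle cells and 18.1% in null wing discs. Of the windows near the limit, 496 had an absolute null difference of 0.1 to 0.11 and 556 one of 0.09 to 0.1.

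The null profiles had little in common as whole-genome curves. The Pearson correlation of the centred null profiles was 0.016 and the Spearman correlation 0.15 over 13360 windows, against 0.61 and 0.40 for the wild-type pair. On the arms the null pair reached a Pearson correlation of 0.19 over 11409 windows, and the wild-type pair 0.34. Neighbouring windows share sequence and all windows of a profile share a library, so these are descriptions. The standard deviation of deposited values over all windows was 0.11 in null follicle cells and 0.10 in null wing discs, against 0.27 in wild-type follicle cells and 0.11 in wild-type wing discs.

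Early and late arm domains still overlapped in part between the null tissues. Of the arm windows in the latest quartile of the null wing disc profile, 39.5% were also in the latest quartile of the null follicle cell profile and 12.1% in its earliest quartile. Of those in the earliest wing disc quartile, 35.4% were in the earliest follicle cell quartile and 18.7% in the latest. In wild type the corresponding shares were 40.7%, 13.4%, 37.9% and 15.6%. The order of arm domains was thus about as much alike between the tissues in the null as in wild type, by this measure.

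**Figure D1:**
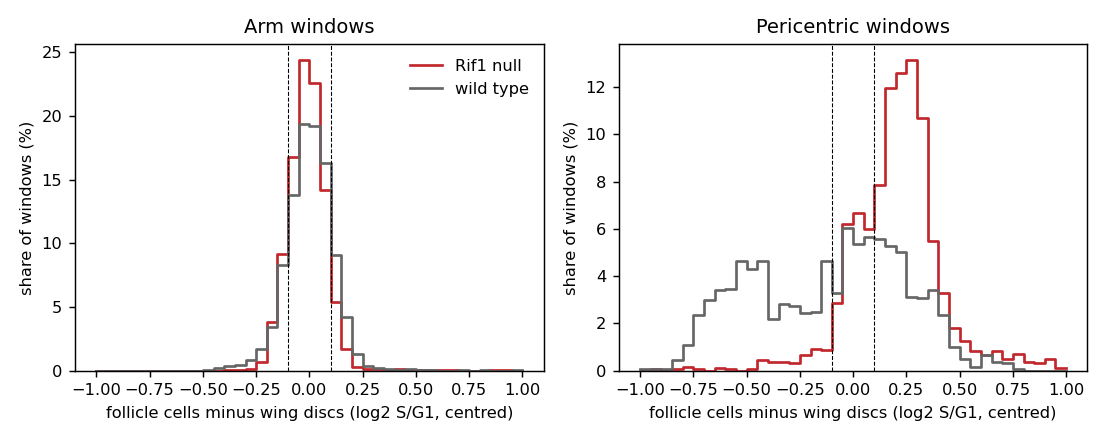
Distribution of the centred log2 S/G1 difference, follicle cells minus wing discs, for arm windows (left) and pericentric windows (right) in Rif1 null and wild type, as the share of windows in steps of 0.05; dashed lines mark 0.1 in each direction. The pericentric null differences gather around a median of 0.21, where the wild-type differences spread to both sides of 0. Windows beyond 1 in absolute difference (6 and 20 on the arms, 12 and 71 in pericentric heterochromatin, for null and wild type) lie outside the axis.

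Pericentric heterochromatin, taken as 22 Mb to the end on 2L and X, up to 5.7 Mb on 2R, 23 Mb to the end on 3L and up to 4.2 Mb on 3R, held 1816 windows. Of these, 1332 (73.3%) were earlier in null follicle cells and 89 (4.90%) in null wing discs, a share that ranged from 2.81% to 8.48% over the alternatives tried. The median null difference was 0.21, with quartiles of 0.09 and 0.31. Pericentric windows made up 13.6% of all windows but 57.9% of those earlier in null follicle cells and 5.31% of those earlier in null wing discs. The wild-type difference in the same windows had a median of -0.08 with quartiles of -0.47 and 0.15, with 31.0% of these windows earlier on the follicle cell side and 48.6% on the wing disc side. The Rif1 PP1 pair lay between them, with a median of 0.04 and 35.1% and 14.2% of windows.

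Between genotypes, the levels behind these differences were further apart in follicle cells than in wing discs. The pericentric median was 0.03 in null follicle cells, -0.17 in null wing discs, -0.27 in wild-type follicle cells and -0.23 in wild-type wing discs. Null follicle cells thus had pericentric DNA at the level of the rest of the scaffold, and null wing discs kept it below that level. The remaining profiles gave -0.05 in null endocycling follicle cells, -0.28 in wild-type endocycling, 0.01 in heterozygous and -0.03 in Rif1 PP1 follicle cells, and -0.09 in Rif1 PP1 wing discs.

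The same was seen on each arm as the gap between the pericentric median and the median of the rest of that arm. In null wing discs the gap was -0.07 on 2L, -0.15 on 2R, -0.18 on 3L, -0.31 on 3R and -0.21 on X. Pericentric DNA was therefore late in null wing discs on all 5 arms. In null follicle cells the gap was 0.06 on 2L, 0.05 on 2R, 0.03 on 3L, -0.02 on 3R and 0.12 on X, and it was below 0 on 3R alone. Wild-type wing discs had gaps of -0.11, -0.20, -0.24, -0.33 and -0.21 on the same arms, and wild-type follicle cells -0.04, -0.12, -0.20, -0.86 and -0.27.

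The arms differed in size of the tissue difference. The median pericentric null difference was 0.13 on 2L, 0.21 on 2R, 0.19 on 3L, 0.26 on 3R and 0.26 on X. On 3R, 86.3% of 416 pericentric windows were earlier in null follicle cells and none of them (0) in null wing discs, whereas on 2L the shares of 157 windows were 52.2% and 13.4%. On 2R, 3L and X, 73.1%, 74.5% and 57.5% of windows were earlier in null follicle cells. The pericentric part of X had the widest spread, with quartiles of -0.02 and 0.63 over 160 windows, and there the null profiles ran against each other, with a Pearson correlation of -0.51. The wild-type medians were -0.0048 on 2L, -0.0070 on 2R, 0.01 on 3L, -0.54 on 3R and -0.12 on X, so the sign differed from the null on 2L, 2R, 3R and X, and on 3R and X the medians of both genotypes were past 0.1. That contrast of genotypes was not tested, since each condition has 1 value per window.

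**Figure D2:**
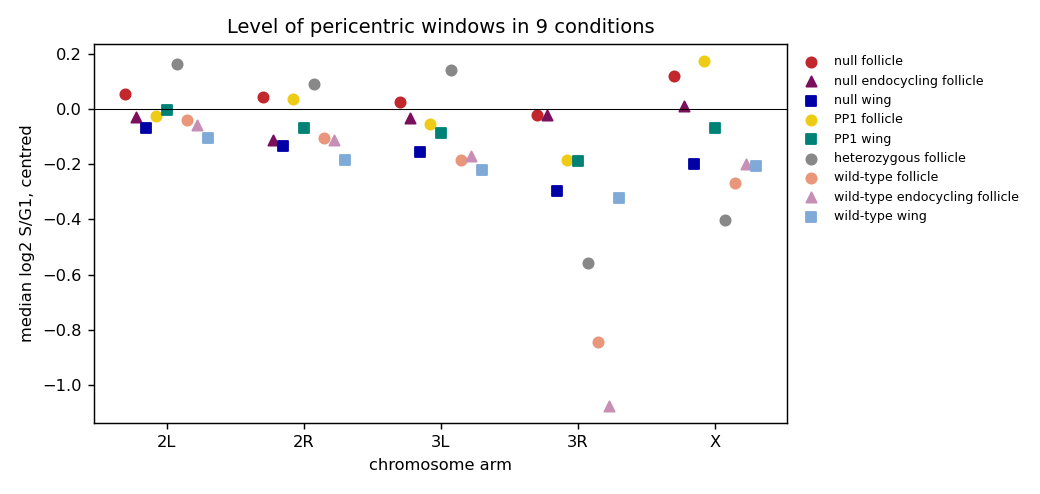
Median centred log2 S/G1 of the pericentric windows of each arm in the 9 conditions; circles are mitotic follicle cells, triangles endocycling follicle cells and squares wing discs. Null follicle cells lie above null wing discs on every arm, by the largest distance on X and 3R, where wild-type follicle cells lie below wild-type wing discs.

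Windows earlier in null follicle cells lay mostly in runs, in pericentric heterochromatin and on the arms. Windows at a slide of 10 kb overlap their neighbours, so runs form in part from shared sequence. Runs of at least 5 such windows numbered 38 in pericentric heterochromatin and held 1300 windows, with a median length of 19 and a longest one of 178. On the arms there were 67 such runs with 797 windows and a median of 10, where 941 arm windows were earlier in null follicle cells. The longest run lay at 3R:1720001-3590000 (dm6) and had a mean null difference of 0.27. It contains Myo81F (a myosin heavy chain), Pzl (related to the Piezo channel), Parp1 (poly(ADP-ribose) polymerase) and spok, a cytochrome P450 gene of ecdysone synthesis. Its mean centred level was -0.02 in null follicle cells, -0.29 in null wing discs, -0.81 in wild-type follicle cells and -0.30 in wild-type wing discs. The null and wild-type wing discs were at the same level here, and the follicle cells of the genotypes were far apart. With the null profiles quantile normalized to each other, the mean difference of this run was 0.17. Null endocycling follicle cells were at -0.02, wild-type endocycling at -0.99, heterozygous at -0.57 and Rif1 PP1 follicle cells at -0.16, and Rif1 PP1 wing discs were at -0.18.

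A second stretch of 3R, 3R:610001-1560000, covered another part of Myo81F and had the same order. Its null difference was 0.25, from -0.07 in null follicle cells and -0.32 in null wing discs, and wild-type follicle cells and wing discs stood at -0.81 and -0.35. Quantile normalization lowered it to 0.13. The run at 3L:24080001-25130000, 96 windows long, holds Snap25 (a SNARE protein), nvd (neverland, an oxygenase of ecdysone synthesis), scro (an NK homeobox factor) and Set1 (a histone H3 lysine methyltransferase). Here null follicle cells were at 0.09 and null wing discs at -0.15, a difference of 0.25, and the wild-type tissues at -0.26 and -0.24 did not differ past the threshold. The Rif1 PP1 profiles gave 0.03 and -0.08, and the heterozygous follicle cells 0.09.

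Only 9 runs of pericentric windows were earlier in null wing discs, of 10 windows at the median. The longest, 23 windows at 2L:21880001-22200000, crosses the border used for 2L and holds Ir40a (an ionotropic receptor), tio (tiptop, a zinc finger paralogue of teashirt), CycK (a cyclin) and Clamp, a zinc finger protein of dosage compensation. Null follicle cells were at -0.09 and null wing discs at 0.07, a difference of -0.16. Further in, 2R:3610001-3800000, with the neuropeptide gene RYa, had a mean difference of -0.49, from -0.68 in null follicle cells and -0.19 in null wing discs. Unlike most pericentric DNA, this stretch stayed late in null follicle cells. Levels of -0.85 and -0.32 in wild type gave the same direction there, and null endocycling follicle cells were at -0.81. The run at 2R:5010001-5200000, with Ir41a, gus, Atf6 (a factor of the unfolded protein response) and Nipped-A (a subunit of histone acetyltransferase complexes), had a difference of -0.34, with null levels of -0.37 and -0.04 and wild-type levels of -0.27 and -0.04.

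With distance from the pericentric border, the null profiles crossed. Over the bins from 3.0 to 1.0 Mb on the centromere side, 81.4% to 90.7% of windows were earlier in null follicle cells, and the median null difference was 0.22 to 0.27. In the 1.0 Mb next to the border on the centromere side, the shares were 40.0% and 38.0% and the medians 0.04 and 0.05. The difference in pericentric DNA thus lay away from the border. Outside it the sign turned, and over each of the 7 bins from 0 to 3.5 Mb into the arm the median null difference was between -0.07 and -0.05.

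In this flanking zone null follicle cells were later in more windows than null wing discs. Of 1750 windows up to 3.5 Mb outside the border, 503 (28.7%) were earlier in null wing discs and 84 (4.80%) in null follicle cells, against 11.2% and 8.88% of the 9664 windows further out. Null follicle cells had a median of -0.04 there and null wing discs 0.02. The zone was uneven among arms. On 3R 59.7% and on 3L 40.3% of its windows were earlier in null wing discs, on 2R 20.3%, on 2L 16.9% and on X 6.57%, where the share further out was 14.2%. Of the windows in the zone, 16.1% were earlier in wild-type wing discs and 14.7% in wild-type follicle cells. Over 5 other scalings and centrings (quantile normalization, 1 median over all scaffolds, the median outside pericentric heterochromatin, no centring, and equal median absolute deviation) the share of the zone earlier in null wing discs was 22.5% to 39.3%, on 3R 52.9% to 79.1% and on 3L 26.0% to 66.6%. The extent of 3.5 Mb was chosen after the values were seen.

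**Figure D3:**
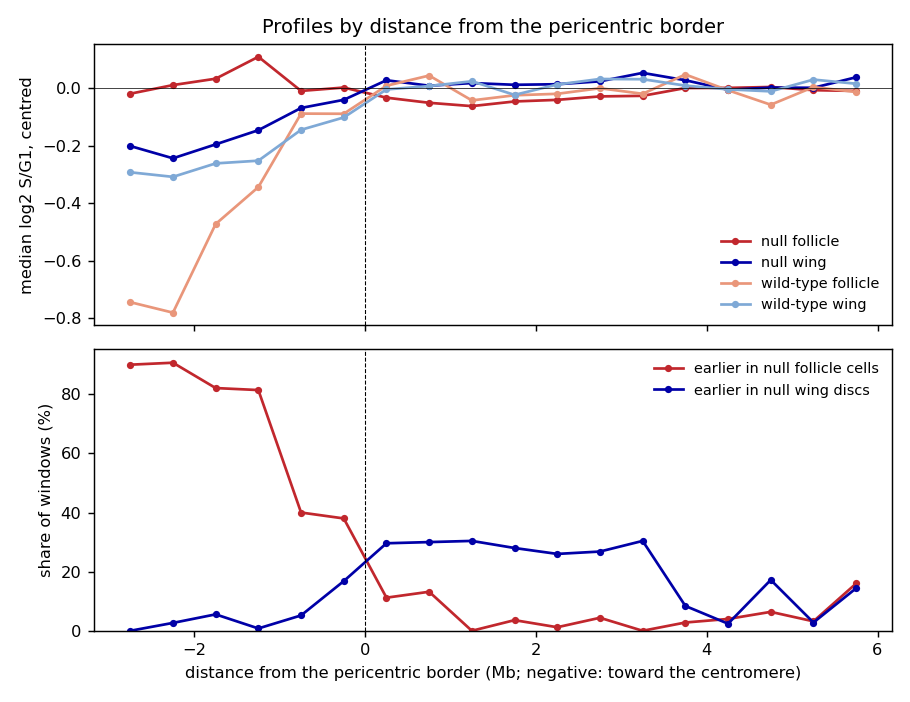
Upper part, median centred log2 S/G1 of null and wild-type tissues in bins of 0.5 Mb by distance from the pericentric border; lower part, share of windows in each bin earlier in either null tissue. Null follicle cells lie above null wing discs toward the centromere and slightly below them over the 3.5 Mb outside the border. The bins beyond 2.0 Mb on the centromere side hold windows of 3 arms.

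The windows that differ between the null tissues were set against those that differ between the wild-type tissues. The comparisons share no S phase sample, but both carry the same change of library kit. A G1 library common to both tissues would cancel within a comparison. Whether the null tissues were divided by the same G1 library is not stated in the sources used here. Of 2405 windows earlier in wild-type follicle cells, 883 (36.7%) were also earlier in null follicle cells, which is 38.4% of the 2300 null windows, and 26 were earlier in null wing discs. Of 2659 windows earlier in wild-type wing discs, 754 (28.4%) were also earlier in null wing discs, which is 45.0% of the 1676 null windows, and 835 (31.4%) were earlier in null follicle cells. With quantile normalized pairs the share of windows earlier in wild-type wing discs that were also earlier in null wing discs was 46.1%. Sign changes between genotypes were thus mostly of the kind in which follicle cells went from the later to the earlier tissue.

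Those 835 windows were mostly pericentric (752). In these 752 the median level was 0.02 in null follicle cells, -0.27 in null wing discs, -0.81 in wild-type follicle cells and -0.32 in wild-type wing discs. The wing disc levels differed little between genotypes beside the follicle cell levels. Of the 883 pericentric windows earlier in wild-type wing discs, 85.2% were earlier in null follicle cells and 5.32% in null wing discs. Of the 563 earlier in wild-type follicle cells, 69.6% were earlier in null follicle cells, where the share of all pericentric windows was 73.3%.

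On the arms the wild-type direction was kept more often than it turned. Of 1764 arm windows earlier in wild-type wing discs, 707 (40.1%) were earlier in null wing discs and 83 (4.71%) in null follicle cells. Of 1810 earlier in wild-type follicle cells, 473 (26.1%) were earlier in null follicle cells and 20 (1.10%) in null wing discs. The arm background was 8.25% and 13.9% of 11409 windows earlier in null follicle cells and null wing discs. The remaining windows lay within 0.1 in the null, with medians of 0.03 and -0.04 for windows earlier in wild-type follicle cells and wing discs. Conversely, 855 of 1582 arm windows earlier in null wing discs (54.0%) and 385 of 941 earlier in null follicle cells (40.9%) were past the threshold in neither direction in wild type.

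Among the arm runs of at least 5 windows, the 6 with the largest mean differences toward follicle cells reached 0.33 to 0.83. The first, X:21640001-21870000, overlaps flam, the piRNA cluster that silences transposons in somatic ovarian cells, and holds no protein-coding gene. Its level was 0.66 in null follicle cells, 0.59 in null endocycling, 0.79 in wild-type, 0.90 in wild-type endocycling, 0.76 in Rif1 PP1 and 0.27 in heterozygous follicle cells, and -0.17, -0.18 and -0.13 in null, wild-type and Rif1 PP1 wing discs. All follicle cell profiles were high here and all wing disc profiles low, whatever the genotype. The reference masks 40.7% of its bases as repeats, and reads in such DNA can be placed ambiguously.

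The second run, 3L:8620001-8850000, holds the chorion cluster read above, with dally (a glypican of Wg and Dpp signalling), Fhos (a formin), Zasp66 and Prm (muscle proteins) among 33 protein-coding genes. Its mean difference was 0.45, from 0.59 in null follicle cells and 0.14 in null wing discs, and null endocycling follicle cells reached 1.16 against 0.67 in wild-type endocycling cells. The difference of this run fell within the threshold, to 0.09, when the profiles were quantile normalized. The run at 2R:6220001-6520000, with jing (a zinc finger factor), bin3 (an RNA methyltransferase), Pld (phospholipase D) and tomboy40 (of the mitochondrial import pore), gave 0.41 and -0.03, a difference of 0.44. It was at 0.42 in Rif1 PP1 follicle cells, 0.15 in wild-type, 0.08 in heterozygous and 0.16 in null endocycling follicle cells. Here the mitotic null and PP1 follicle cells stood above the other 4 follicle cell profiles, and 47.0% of the bases were masked.

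The run at 2L:21330001-21530000 spans the histone gene repeats, with 108 protein-coding genes, and Tsp39D (a tetraspanin), nrv3 (a sodium pump subunit), dimm (a factor of neurosecretory cells) and dtr beside them. Its levels were 0.37 in null follicle cells and -0.06 in null wing discs, a difference of 0.43, and 0.56 and -0.33 in wild type. Null endocycling follicle cells were at -0.10, apart from the mitotic cells of the same genotype. Histone genes are near-identical copies, so the value of this run is uncertain.

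The last of these runs held 16 and 11 protein-coding genes. The run at 3L:9010001-9230000, with bol (an RNA-binding protein of male meiosis), Rdl (a GABA receptor), teq (a serine protease) and Argk1 (arginine kinase), had null levels of 0.25 and -0.10, a difference of 0.35, against 0.07 and -0.01 in wild type. Rif1 PP1 follicle cells were at 0.28 there and heterozygous ones at 0.13. The run at X:8200001-8390000, with nAChRalpha3 (an acetylcholine receptor subunit), sdt (stardust, of apical polarity), Trxr1 (thioredoxin reductase) and ND-75 (of respiratory complex I), lies beside the chorion genes of X. It had null levels of 0.25 and -0.07, a difference of 0.33, and wild-type levels of 0.40 and -0.10.

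Over all arm runs of at least 5 windows, the median run mean was -0.13 toward null wing discs and 0.13 toward null follicle cells. The 6 arm runs with the largest means toward null wing discs were shallower than those toward null follicle cells, at -0.18 to -0.23. The longest of them, X:60001-580000, lies next to the telomere of X and holds elav (a neuronal RNA-binding protein), Appl (the amyloid precursor protein orthologue), tyn and arg (arginase). It was at -0.13 in null follicle cells and 0.10 in null wing discs, at -0.14 and 0.05 in wild type, and at 0.02 and 0.12 in Rif1 PP1. Null endocycling follicle cells were lowest, at -0.45. The proneural genes ac and sc, which pattern bristles in the disc, lie inside it and had null differences of -0.27 and -0.28, with the same value of -0.27 in wild type for both.

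A pair of runs lay within a few megabases of the pericentric border of 3R. At 3R:4740001-5230000, with cno (an adherens junction protein), Cdep, atms (a subunit of the Paf1 complex) and ctrip (a ubiquitin ligase), follicle cells and wing discs of the null were at -0.07 and 0.12, and those of wild type at 0.07 and 0.11. The wing discs were alike in both genotypes, and null and Rif1 PP1 follicle cells, the latter at -0.15, were the low profiles. At 3R:7110001-7520000, with rn (rotund, a zinc finger factor of leg and wing discs), Alh, sas and thw, null levels were -0.10 and 0.09 and wild-type levels -0.03 and 0.04.

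Of the other 3 runs, X:5910001-6120000, with Ca-alpha1T (a calcium channel), Grip, Nep1 (a neprilysin) and Mipp2, had null levels of -0.06 and 0.12. X:2960001-3130000, with kirre and rst, which encode adhesion proteins of myoblast fusion, had -0.02 and 0.20, a difference of -0.21 that was -0.41 after quantile normalization, and it adjoins the windows of X that were left out. X:21800001-21970000, next to the flam run, had -0.43 and -0.20, against -0.88 and -0.41 in wild type. In this last run all 9 profiles were below 0.

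**Figure D4:**
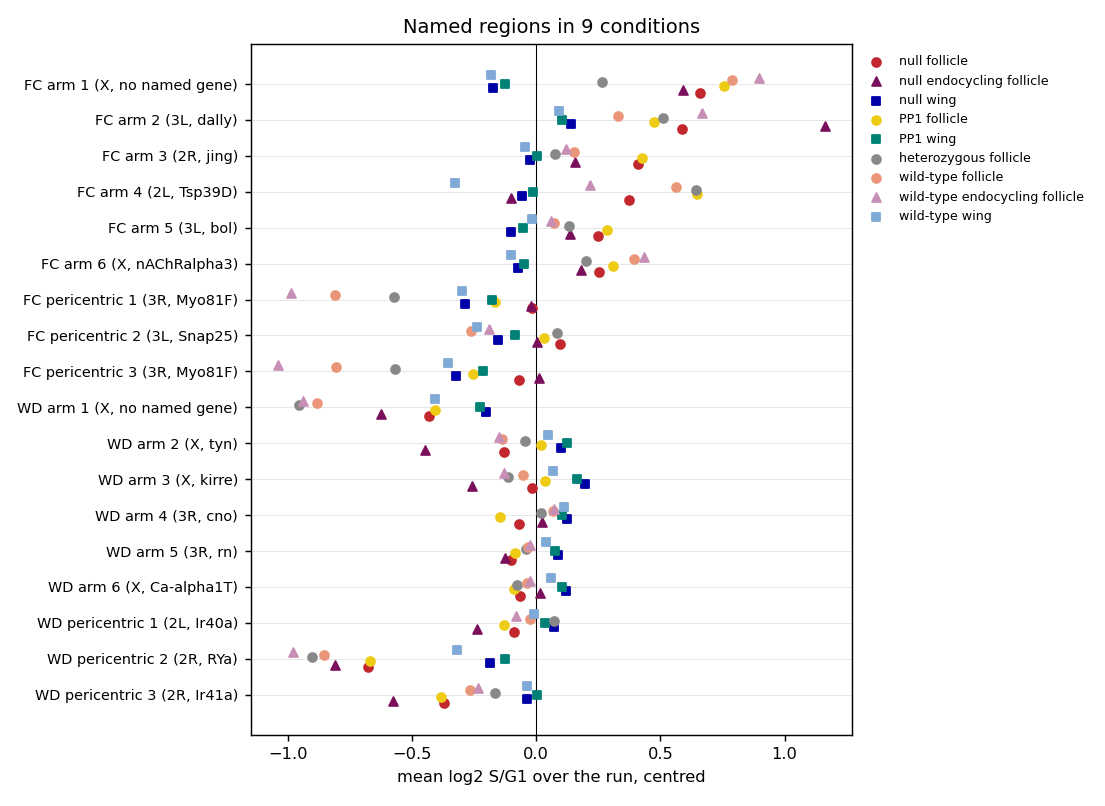
Mean centred log2 S/G1 of each named run in the 9 conditions; FC marks runs earlier in null follicle cells, WD those earlier in null wing discs, each with its chromosome and longest named gene. Wing disc profiles (squares) of the 3 genotypes lie close together in most runs, and follicle cell profiles spread more widely, most of all in the 3R pericentric runs.

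Of all arm runs of at least 5 windows, 67 were earlier in null follicle cells and 104 in null wing discs. In 53 and 86 of them the wild-type mean had the same sign, and in 35 and 47 it was also past 0.1. The Rif1 PP1 mean was past 0.1 in the same direction in 53 and 63. Of single arm windows, 15.9% and 15.5% were earlier in wild-type follicle cells and wing discs. In the Rif1 PP1 pair these shares were 14.8% and 18.5%. In the 38 pericentric runs earlier in null follicle cells, the wild-type sign was the same in 19. The wild-type mean was also past 0.1 in 15 of them. Of single pericentric windows, 31.0% were earlier in wild-type follicle cells.

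Genes of each tissue were read at the window whose midpoint lay nearest to the gene, and neighbours in a window share 1 value. Of 23 wing disc patterning genes, 10 were earlier in null wing discs and 1 in null follicle cells, with a median difference of -0.10. Over all windows the shares were 12.5% and 17.2% and the median 0.0016. Over arm windows, where all of these genes but ci lie, the shares were 13.9% and 8.25% and the median -0.01. The count earlier in null wing discs was 9 to 11 over 5 other scalings and centrings. Those named as earlier in wing discs included wg (the Wingless ligand, -0.15), en (engrailed, the posterior selector, -0.19), ap (apterous, the dorsal selector, -0.14), ptc (the Hedgehog receptor, -0.15), bi (optomotor-blind, a Dpp target, -0.17) and ara (of the Iroquois complex, -0.14). In null follicle cells and null wing discs, wg stood at -0.06 and 0.09 and en at -0.12 and 0.06. The ligand gene dpp (-0.04), the wing selector vg (-0.08) and hh (0.04) were within 0.1. The exception in the other direction was ci (0.20), the Hedgehog pathway factor on chromosome 4. With quantile normalization, 1 median over all scaffolds or no centring, ci was not earlier in null follicle cells. In wild type 8 of the 23 were earlier in wing discs and 2 in follicle cells, against 15.5% and 15.9% of arm windows.

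Of 12 genes of follicle cell identity and patterning, none (0) were earlier in null follicle cells, against 8.25% of arm windows, and the other scalings and centrings gave 1. In null wing discs 3 were earlier, namely br (Broad, a factor of dorsal appendage patterning, -0.16), cas (castor, a factor of early follicle cells, -0.11) and fng (Fringe, which modifies Notch, -0.19). The median was -0.05, and tj (traffic jam, a Maf factor of somatic gonadal cells) was at 0.01. Of the eggshell and yolk genes, 13 of 18 in 9 distinct windows were earlier in null follicle cells and none (0) in null wing discs, with a median of 0.24. Of arm windows, 8.25% were earlier in null follicle cells and 13.9% in null wing discs. The chorion clusters, which follicle cells amplify and which were read above for the tissue labels, gave 9 of these genes from a few shared windows. The 13 genes thus stand for fewer windows, and a share of arm windows is not a like measure. The vitelline membrane genes Vm26Aa, Vm26Ab and Vm34Ca were at 0.15, 0.15 and 0.18, and psd, which shares the window of Vm26Aa, at 0.15. The yolk protein genes Yp1, Yp2 and Yp3 were within 0.1 at 0.04, 0.04 and -0.04.

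The Hox clusters differed from each other. In the Antennapedia complex all 5 listed genes were earlier in null wing discs, from lab (-0.11), pb (-0.13) and Dfd (-0.13) to Antp (-0.17) and Scr (-0.19). Wild-type differences lay between -0.07 and -0.01. Most of these windows overlap, and all lie in the zone up to 3.5 Mb outside the 3R border. In that zone 59.7% of 3R windows were earlier in null wing discs. The bithorax complex lies further out on 3R, where that share was 8.56%, and 8.35% of windows were earlier in null follicle cells. At Scr, null follicle cells were at -0.19 and null wing discs at 0.0021, with null endocycling follicle cells at -0.30. The bithorax genes had differences of the opposite sign, 0.10 at Ubx, 0.07 at abd-A and 0.08 at Abd-B, of which Ubx was just past the threshold and fell within it under 4 of 5 other scalings and centrings. Of 20 genes of replication initiation and timing, 19 lay within 0.1, as did 77.9% of arm windows. Mcm5, a subunit of the replicative helicase, was at -0.11, Rif1 at -0.06 and SuUR, a Rif1 partner that promotes underreplication, at 0.04.

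Of 15 genes residing in heterochromatin, 9 were earlier in null follicle cells and none (0) in null wing discs, with a median of 0.16. Of all pericentric windows, 73.3% were earlier in null follicle cells and 4.90% in null wing discs, with a median of 0.21. The listed genes were thus not above the follicle cell share of their surroundings. The flam locus lies outside the pericentric limits used here. The largest differences were at flam (0.74), spok (0.35), rl (the MAP kinase Rolled, 0.29), uex (0.20), nvd (0.20) and Parp1 (0.20). At spok the null levels were 0.12 and -0.23 and the wild-type levels -0.56 and -0.17, whereas at rl they were 0.18 and -0.11 in the null and 0.52 and -0.10 in wild type. On 2L, lt (light) and cta were at -0.03 and -0.08, and on 2R Nipped-A, Nipped-B and Gprk1 at -0.07, 0.02 and 0.0034. The single window of His1:CG31617 and His2A:CG31618 was at 0.29.

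**Figure D5:**
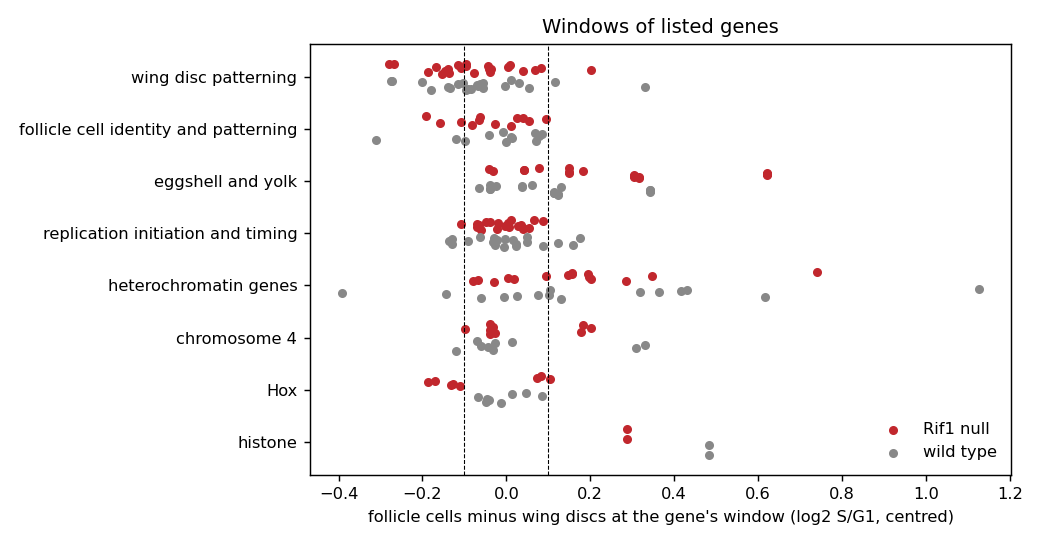
Centred log2 S/G1 difference, follicle cells minus wing discs, at the window of each listed gene in Rif1 null and wild type, with dashed lines at 0.1 in each direction. Eggshell genes reach 0.62 in the null, and the Hox genes fall into a group below -0.1 and a group at 0.07 to 0.10.

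At the telomere ends, taken as the outermost 0.5 Mb, the median null difference was below 0 on all 5 arms, within the threshold on 3 of them. It was -0.21 on X, -0.16 on 2L, -0.10 on 3L, -0.05 on 2R and -0.05 on 3R, and the wild-type medians were -0.20, -0.20, -0.15, -0.08 and -0.12. The sign was the same in both genotypes on all 5 arms. On X, 40 of 46 windows were earlier in null wing discs, and 4 were earlier in null follicle cells. On 2L 36 of 46 windows were earlier in null wing discs, on 3L 22 of 46, on 2R 12 of 55 and on 3R 2 of 55. Over all arm windows the share was 11.21% on 2L, 18.04% on 3L, 11.36% on 2R, 14.97% on 3R and 12.99% on X. The end of 3R thus had a smaller share of such windows than its arm, and the other ends a larger one. The outermost window of X stood at 1.22 in the deposited null follicle cell profile, 1.45 in Rif1 PP1 and 1.04 in null endocycling follicle cells, against -0.13 in wild-type follicle cells and -0.16 in null wing discs.

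Chromosome 4, which is rich in heterochromatin along its length, had 27 of 135 windows earlier in null follicle cells and 5 (3.70%) in null wing discs, with a median of 0.0096. The follicle cell share is near the 17.2% of all windows. The genes pan (0.18), ci (0.20) and unc-13 (0.18) were past the threshold, and ey, toy, sv, PlexA and bt, with zfh2 just short of it, lay between -0.10 and -0.03. Each profile was centred on the median of the chromosome, which was -0.07 in null follicle cells and 0.05 in null wing discs as deposited, so the difference of the whole chromosome is removed. With quantile normalization, 1 median over all scaffolds or no centring, none (0) of the 9 genes were earlier in null follicle cells and 6 were earlier in null wing discs.

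Sequence content was read from the dm6 assembly. Pericentric windows earlier in null follicle cells had a median GC content of 39.5%, 38.7% of bases masked as repeats and a median of 0 protein-coding gene midpoints, against 39.1%, 32.6% and 1 in pericentric windows within 0.1. In the highest GC decile of pericentric windows (41.8% to 56.3%), the median null difference was 0.40 and 87.9% of windows were earlier in null follicle cells. In the other deciles the medians ranged from 0.17 to 0.22. Across 1816 pericentric windows the null difference had Spearman correlations of 0.29 with the masked share, -0.41 with the number of genes and 0.22 with GC content, and the wild-type difference -0.14, 0.44 and -0.19.

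On the arms, the windows at the low end of GC content were earlier in null follicle cells more often. The share was 19.3% in the lowest decile (34.4% to 39.9% GC), 12.6% in the next and 3.86% in the highest decile. The share earlier in null wing discs varied from 11.5% to 16.1% with no such order. Arm windows earlier in null follicle cells had a median of 18.6% masked bases and 8 genes, those earlier in null wing discs 15.9% and 9, and those within 0.1 15.8% and 12. Library kits can differ in their reading of GC content. With the GC trend removed from each profile, the pericentric median was 0.17 and 64.3% of pericentric windows were earlier in null follicle cells. The part of the library kits in the differences was not tested.

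The 31 windows of X that were left out span 2650001 to 3050000 and lie around kirre. In the deposited null follicle cell profile their mean was 1.37 and their highest value 6.59, and in null wing discs -0.0035 and 0.17. The 3 highest windows, chosen after their values were seen, had means of 6.57 in null, 6.67 in wild-type and 6.58 in Rif1 PP1 follicle cells. In wing discs the means were -0.02, -1.27 and -0.01. The block was thus high in follicle cells of each of these genotypes, and the part of the G1 library in it was not tested.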

How the data were processed

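The authors sequenced DNA of sorted S phase and G1 nuclei, aligned it with Bowtie 2 version 2.3.2 to dm6, dropped alignments of mapping quality 10 or lower (SAMtools version 1.9), counted reads per 100-kb window, scaled the counts to library size and averaged S/G1 over the S phase replicates. The deposited log2 values are that ratio per condition and window, before any quantile normalization; depth per sample is not part of the table. From there, with Python 3.11.15, numpy 2.4.6 and pandas 2.3.3, each profile was centred on its scaffold median, tissue differences were taken, and windows past 0.1 were counted; plots used matplotlib 3.10.9. No test was run. Scripts were tested on simulated data. Named regions were, among runs of at least 5 windows, the 6 arm runs with the largest mean and the 3 longest pericentric runs in each direction, with up to 4 of their longest named protein-coding genes; runs of equal length were taken in chromosome order. Listed genes were matched by symbol or synonym to RefSeq (Release 6 plus ISO1 MT), and a pair of listed symbols without a single match, Dl and Caps, was left out. GC content and masked repeats were counted from the same assembly. The windows, lists and rules were chosen with earlier results of these data known. RNA sequencing and 1 wing disc library with conflicting phase labels were not used here.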

Additional observations from a re-analysis of the deposited data

Results flagged for a closer look

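On 3R and X the median tissue difference in pericentric heterochromatin had opposite signs in the null and in wild type and was past 0.1 in both. On 3R the median was 0.26 in the null, with follicle cells earlier, and -0.54 in wild type, with wing discs earlier. On X the medians were 0.26 and -0.12. Each genotype has 1 mean per tissue, so the difference between genotypes was not tested.

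A signal also stood in the windows of X that the comparison left out. The 3 highest of them, within kirre, had a mean of 6.57 in null follicle cells and of -0.02 in null wing discs.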

How the results depend on the processing

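Of the 108 alternative values of the 10 main results, 91 stayed within 1.5 times the reported value. Only the pericentric median and the Pearson correlation could change sign, and neither did. The other main results are shares of windows, which cannot be negative. The pericentric median ranged from 0.15 to 0.23 and the share of pericentric windows earlier in null follicle cells from 53.5% to 79.1%. A threshold of 0.2 left 8.23% and 1.22% of all windows earlier in null follicle cells and null wing discs, 1.09% and 0.93% of arm windows, 3.08% of pericentric windows earlier in null wing discs, and 5.57% of windows earlier in wild-type wing discs also earlier in null wing discs. Which tissue had more windows turned over all windows with quantile normalization (15.5% earlier in null follicle cells, 18.1% in null wing discs), and on the arms with the median of non-pericentric windows and with the threshold of 0.2. The share of windows also earlier in null wing discs, 5.57% above, was 46.1% with quantile normalized pairs. The share of pericentric windows earlier in null wing discs was 7.43% with quantile normalization, 8.48% with the GC trend removed, and 7.79% and 2.81% with pericentric limits moved by 0.5 Mb toward the arm and toward the centromere. The Pearson correlation of the null profiles was 0.098 with quantile normalization, 0.024 with 1 median over all scaffolds or no centring, 0.026 with the GC trend removed or with every 10th window, and 0.033 without windows beyond 1; apart from the threshold and the limits, the cause was not tested. Of 90 values for named runs, 4 moved by over 1.5 times, all with quantile normalization and all given above. Other scalings and centrings of the zone outside the border and of the listed genes were added after seeing the data.

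No paired analysis was possible because each condition has 1 deposited mean, and for the same reason the alternative of leaving out each replicate was not run. The unknown depth and the absence of replicate values limit every difference, including the shallow ones on the arms.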
